A study of Homo sapiens with 16 samples.

Results

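The genes described here encode the machinery that licenses DNA replication origins, fires them and copies DNA at the fork. They were chosen by symbol from a list of 49 names, and each name matched 1 of the 58787 Ensembl rows of the counts table. By role they fall into 9 origin licensing genes, 11 helicase genes, 3 firing genes, 9 genes of polymerases and primase, 8 of the sliding clamp, its loader and the joining of new strands, and 9 of single-strand binding and fork protection. All 49 had enough reads to be tested, among 14193 genes that were, with 37 to 2509 counts in any 1 library.

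RNA came from IMR32, a human neuroblastoma line with amplified MYCN, which the labels place in brain as a neuroblast. In 3 groups the gene TPX2, which encodes a spindle protein that activates the kinase AURKA, was knocked down with the siRNAs si45, si46 or si47. The fourth group received siNTC, a control siRNA, and its genotype is given as control. Each of the 4 groups had 4 replicates, which the design text calls biological without saying whether cultures were separate, and the column names give 48 h for every library. The results therefore come from 1 cell line and a transient knockdown, with no untransfected group among the 16 libraries.

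Total counts ran from 5318159 to 7864343 per library. TPX2 was at 297 to 359 CPM (reads of the gene scaled to a common library size) in siNTC, at 79.4 to 121 in si45, at 62.2 to 93.8 in si46 and at 68.7 to 76.3 in si47. All 12 knockdown libraries were below all controls (two-sided exact permutation test, p = 0.0286 for each siRNA, the smallest that is possible here). Replicate 3 of si45 stood apart, at 121 CPM of TPX2 against 79.4 to 85.1 in the other si45 libraries. All 10 noradrenergic neuroblast markers checked were expressed, TH at a mean of 2.78 CPM in the controls. Of 7 mesenchymal or Schwann cell, 3 epithelial and 3 blood markers, 2, 1 and 0 had enough reads to be tested, and SOX10, KRT5, HBB and CD3E were at 0 in all 16 libraries. The summed level of the 10 markers was 5359 to 5754 CPM in siNTC, 5628 to 6121 in si45, 5845 to 6501 in si46 and 6086 to 6570 in si47, and its part in the results below was not tested.

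In each cell cycle the origin recognition complex (ORC) binds DNA, and CDC6 and CDT1 load the MCM2 to MCM7 ring onto it as an inactive helicase. Entry into S phase adds CDC45 and the GINS complex, which turns the ring into the active helicase known as CMG. The DNA polymerases, the clamp PCNA and its loader then copy both strands, while RPA coats single strands and a further set of proteins keeps the fork intact. Many of these genes are transcribed under E2F factors and so are expressed in cycling cells, and several are used as proliferation markers in tumours.

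As a feature that did not enter the choice of genes, promoters were searched for the E2F letters TTTCCCGC, TTTCGCGC, TTTGCCGC and TTTGGCGC on both strands. Promoters came from RefSeq on GRCh38.p14, from 250 bases before to 50 after each start, and 43 of the 49 genes matched by symbol with 54 promoters. At least 1 of the 4 motifs was present in 23 of these 54 promoters (42.6%), against 737 of 14924 promoters of tested genes (4.94%) and 1164 of all 35116 (3.31%). A CCAAT box, searched as CCAAT on both strands, was in 30 of the 54 (55.6%), against 35.1% of promoters of tested genes and 34.6% of all. The motif TTTGAA or TTCGAA, known as CHR, was in 2 of 54 (3.70%), against 11.8% of promoters of tested genes and 16.4% of all. The windows below are shown because they hold the shared motif in genes that fell and in genes that did not pass. Each is 30 bases written 5′ to 3′ on the strand of its gene, capitals mark 1 E2F match, and the distance is from the last base of the match to the start. This start is the RefSeq start of the promoter, and it can differ from the GENCODE gene positions given further on. For CDT1, GMNN, POLA2, RFC3, CDC7 and TIPIN the window lies inside those gene positions. The first 7 belong to genes that fell over the 3 siRNAs.
CDT1 (chr16:88803743-88803772, plus strand, 28 bases before the start): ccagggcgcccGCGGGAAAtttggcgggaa
GMNN (chr6:24775322-24775351, plus strand, 73 bases before the start): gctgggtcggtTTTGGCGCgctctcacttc
MCM3 (chr6:52284898-52284927, minus strand, 167 bases before the start): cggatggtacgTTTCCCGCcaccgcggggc
MCM6 (chr2:135876515-135876544, minus strand, 83 bases before the start): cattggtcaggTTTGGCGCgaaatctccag
POLA1 (chrX:24693770-24693799, plus strand, 130 bases before the start): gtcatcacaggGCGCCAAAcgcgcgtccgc
POLA2 (chr11:65261898-65261927, plus strand, 46 bases before the start): ttggctcccggTTTCGCGCatgcgtgcact
RFC3 (chr13:33818083-33818112, plus strand, 48 bases before the start): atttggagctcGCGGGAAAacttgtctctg
The next 3 belong to genes that passed in none of the comparisons with siNTC.
PCNA (chr20:5126663-5126692, minus strand, 52 bases before the start): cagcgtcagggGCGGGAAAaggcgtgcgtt
CDC7 (chr1:91501067-91501096, plus strand, 27 bases before the start): tccgacctgcgGCGGGAAAgtcgcgcgcct
TIPIN (chr15:66356729-66356758, minus strand, 55 bases before the start): gcacggatttgGCGCCAAAcgctgcgggcc
Of the 24 promoters of genes that fell over the 3 siRNAs, 13 (54.2%) held an E2F match, as did 10 of the 30 promoters (33.3%) of the other genes. Counted by gene, a match was found in 13 of 22 (59.1%) and 10 of 21 (47.6%). Whether these shares differ was not tested. A match is a run of letters and not a measured site, and some letters match on both strands at overlapping positions.

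After TPX2 knockdown about as many replication transcripts fell as did not pass, and the decreases were under 2-fold. When the 3 siRNAs were averaged and set against siNTC, 25 of the 49 genes fell and 0 rose (edgeR, adjusted p under 0.05), where 3.53% of all tested genes fell and 3.61% rose. Among the 8772 tested genes at least as abundant as the lowest of the 49, 5.20% fell. The median log2 fold change of the 49 was -0.31, which is 80.4% of the control level, beside a median of -0.0011 over all genes tested. The sign was negative in 47 of the 49, and the values ran from -0.64 for POLD1 to 0.21 for ORC5. The unadjusted p was under 0.05 for 32, all lower, where 20.4% of all tested genes had such a p in either direction. A lower level in bulk RNA can come from fewer cells in S phase or from less RNA in each cell, and these cannot be told apart here.

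The 3 siRNAs gave different numbers of calls. Under si47, 30 of the 49 genes fell (4.83% of all tested genes fell), with a median of -0.45 or 73.4% of the control level. Under si46, 10 fell (1.25% of all tested genes), with a median of -0.27. Under si45, 0 passed in edgeR with the count filter and no block, where 0.324% of all tested genes fell, and 0 passed in DESeq2. Without that filter 4 fell in edgeR, where 83 genes fell in all. At an unadjusted p under 0.05 the si45 number was 16, against 11.4% of all tested genes in either direction, and the si45 median was -0.14. None of the 49 rose under any of the 3, where 1.01%, 2.14% and 4.91% of all tested genes rose under si45, si46 and si47. By level alone, at least 9 of the 12 knockdown libraries lay below all controls for 27 of the 49 genes (7.31% of all tested genes). All 4 libraries of si45, si46 and si47 did so for 7, 23 and 29 genes (2.95%, 4.67% and 6.98% of all tested genes). A decrease of 1.5-fold or more was fitted for 0, 1 and 15 genes under si45, si46 and si47, where 3.27%, 3.63% and 5.78% of all tested genes had such a value, and 0 of the 49 reached 2-fold under si47. All 10 genes called under si46 were also called under si47, in comparisons that share their control libraries. With the replicate number fitted as a block, 9, 21 and 33 of the 49 fell under si45, si46 and si47. In that fit 243, 487 and 1130 of all tested genes fell. The other counts against siNTC given here are without the block.

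Single libraries weighed on these counts. Without si45 replicate 3 the si45 count was 8, and it was 1 without si46 replicate 2 or si47 replicate 3. Calls over all tested genes moved as well. Under si45, 137 of these fell without si45 replicate 3 and 52 without si46 replicate 2, against 46 with all libraries. The si46 count was 6, 6, 6 and 5 without siNTC replicate 1, 2, 3 or 4, and 5, 3 and 4 without si46 replicate 1, 2 or 4. Of all tested genes, 178 fell under si46 with all libraries. That number was 93, 100, 128 and 101 without siNTC replicate 1, 2, 3 or 4, and 111 and 74 without si46 replicate 1 or 2. For the mean of the 3 siRNAs it was 16 without siNTC replicate 3. The si47 count stayed between 28 and 31 without any 1 library. Of the 25 genes called over the mean, 13 kept their call in each of the 16 fits without 1 library: CDC6, CDT1, MCM3, MCM4, MCM10, POLA1, POLD3, POLE, RFC3, WDHD1, CLSPN, DTL and MCM8.

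**Figure D1:**
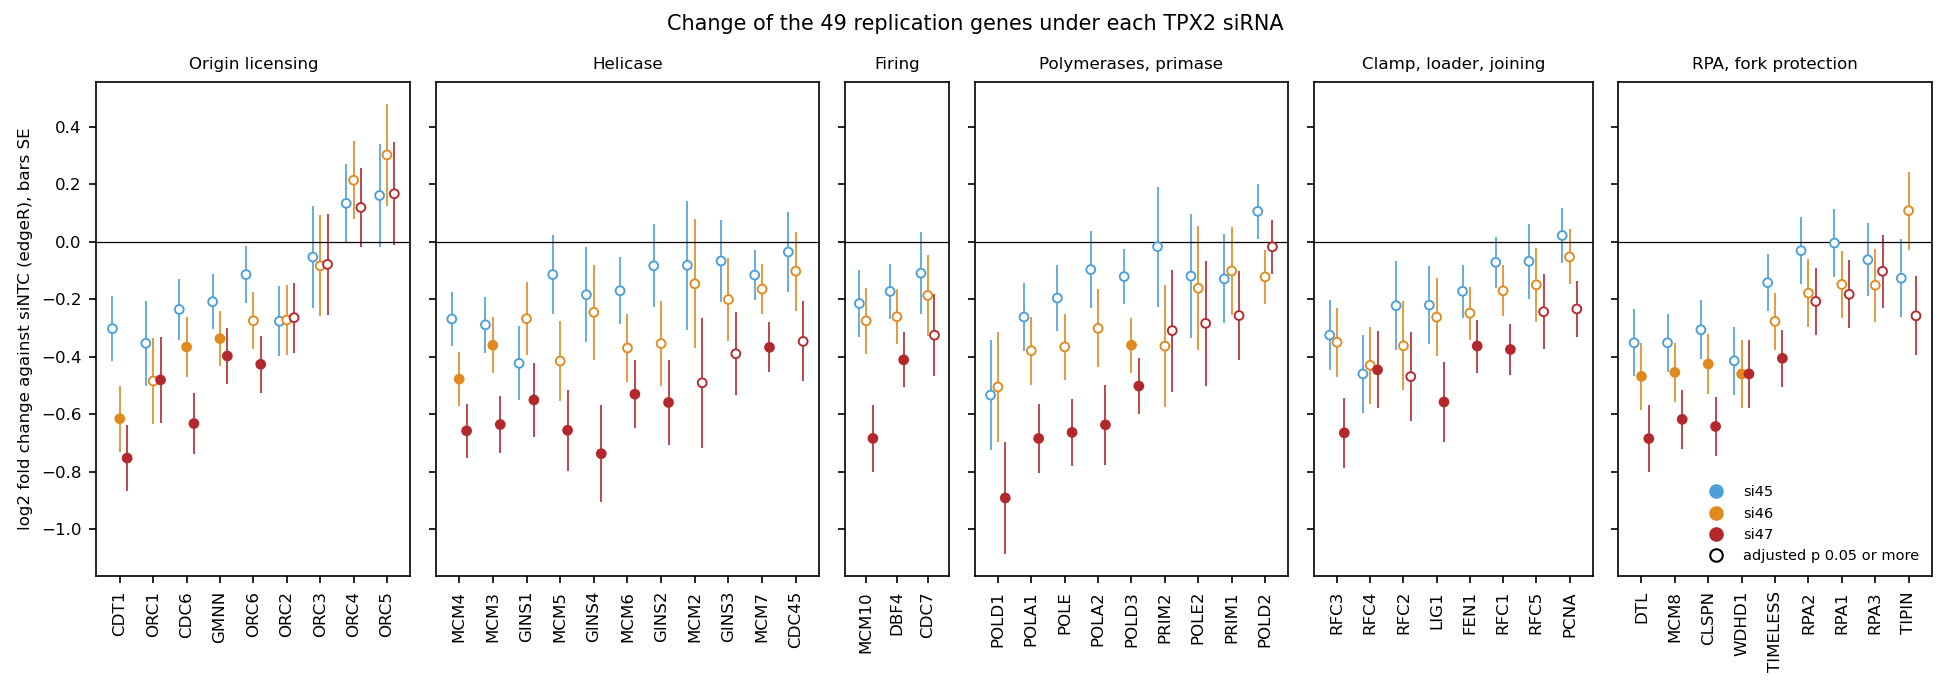
Log2 fold change of each of the 49 genes against siNTC (vertical axis, edgeR, bars SE) under si45, si46 and si47, with genes sorted within their role and filled points at an adjusted p under 0.05. The si47 points are the lowest for most genes, and ORC4 and ORC5 lie above 0 under all 3 siRNAs.

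Among the licensing genes the loading factors fell, and 4 of the 6 ORC subunits did not pass. 5 of the 9 fell over the 3 siRNAs (CDT1, CDC6, GMNN, ORC1 and ORC6) and 5 fell under si47, against 3.53% and 4.83% of all tested genes. CDT1 (ENSG00000167513, chromosome 16, 88803213 to 88809258 on the plus strand), which brings the MCM ring to ORC, had the lowest p of this role. Its levels in replicates 1 to 4 were 55.2, 61.5, 55.8 and 60.4 CPM in siNTC, 43.8, 44.5, 53.4 and 47.3 in si45, 33.3, 38.7, 41.1 and 39.1 in si46 and 31.4, 33.6, 38.3 and 34.9 in si47. All 12 knockdown libraries lay below all 4 controls, a pattern seen in 5 of the 49 genes (CDT1, ORC1, MCM3, MCM4 and DTL) and in 1.03% of all tested genes. Over the 3 siRNAs its log2 fold change came to -0.56 (SE 0.0912, edgeR adjusted p = 8.99e-05), and under si47 CDT1 was left at 59.4% of the control mean.

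CDC6 (ENSG00000094804, chromosome 17, 40287633 to 40304657 on the plus strand), the ATPase that works with CDT1, was at 103, 87.9, 102 and 102 CPM in siNTC, 74.99, 83.02, 92.6 and 85.1 in si45, 81.7, 70.2, 85.9 and 68.4 in si46 and 55.2, 63.1, 74.4 and 62.1 in si47. The si47 libraries were the lowest as a group, and 11 of the 12 knockdown libraries lay below all controls, the exception being si45 replicate 3. The change over the 3 siRNAs was -0.41 (SE 0.0842, edgeR adjusted p = 0.00148). GMNN (ENSG00000112312, chromosome 6, 24774931 to 24786099 on the plus strand), whose product geminin binds and inhibits CDT1, was at 119, 124, 104 and 126 CPM in siNTC, 112, 105, 103 and 88.9 in si45, 94.7, 92.6, 87.4 and 100.0 in si46 and 82.5, 86.9, 101 and 89.1 in si47. It overlapped the controls only in si45, and fell over the 3 siRNAs by 0.31 (SE 0.0771, edgeR adjusted p = 0.00862; 0.0568 without siNTC replicate 4). The ratio of CDT1 to GMNN counts within a library was 0.463 to 0.538 in siNTC, 0.391 to 0.532 in si45, 0.352 to 0.470 in si46 and 0.380 to 0.392 in si47, a ratio chosen after the values were seen.

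Of the 6 ORC subunits, which form 1 complex, 2 fell. ORC1, the largest subunit, was at 33.6 ± 2.34, 26.3 ± 2.99, 23.9 ± 3.87, 24.05 ± 4.31 CPM (mean ± SD, n = 4, in siNTC, si45, si46 and si47), and its change over the 3 siRNAs was -0.44 (SE 0.119, edgeR adjusted p = 0.0178). That call was lost when siNTC replicate 3 (0.0755) or replicate 4 (0.0743) was left out. ORC6 fell by 0.27 (SE 0.0801, edgeR adjusted p = 0.0315), and did not pass without siNTC replicate 1, 2 or 3 or si47 replicate 2 (0.117, 0.0895, 0.133 and 0.0507). ORC2, with -0.27, did not pass (edgeR adjusted p = 0.0905), although 11 of 12 knockdown libraries lay below all controls. ORC3 had the highest p of the licensing genes, at 18.8, 20.02, 19.7 and 22.7 CPM in siNTC, 18.5, 19.3, 22.9 and 17.6 in si45, 16.7, 21.1, 25.3 and 13.6 in si46 and 18.4, 21.95, 21.2 and 15.4 in si47. Its groups overlapped throughout, and its value of -0.07 (SE 0.144, edgeR adjusted p = 0.834) did not pass. ORC4 and ORC5 had positive values over the 3 siRNAs that did not pass, 0.16 (SE 0.113) and 0.21 (SE 0.147), and in ORC4 10 of the 12 knockdown libraries lay above all controls. ORC4 is overlapped on the opposite strand by ACVR2A and MBD5. Whether the difference between the subunits is larger than their error was not tested.

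The values of all 11 helicase genes were negative under each siRNA. 5 of the 11 fell over the 3 siRNAs (MCM3, MCM4, MCM5, MCM6 and GINS1; 3.53% of all tested genes), and 8 fell under si47 (4.83% of all tested genes). The summed level of MCM2 to MCM7 was 1269 to 1353 CPM in siNTC, 1101 to 1277 in si45, 999 to 1195 in si46 and 849 to 1037 in si47. The si46 and si47 sums lay below all controls, and si45 overlapped them through replicate 3.

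MCM4 (ENSG00000104738, chromosome 8, 47960185 to 47978160 on the plus strand), 1 of the ring subunits, was at 283, 276, 281 and 283 CPM in siNTC, 214, 243, 264 and 211 in si45, 203, 182, 226 and 195 in si46 and 167, 186, 205 and 153 in si47. The 4 controls were close together and all 12 knockdown libraries were below them. Over the 3 siRNAs MCM4 had -0.47 (SE 0.0737, edgeR adjusted p = 4.88e-05). MCM3 (ENSG00000112118, chromosome 6, 52264009 to 52284881 on the minus strand) was at 223, 224, 224 and 246 CPM in siNTC, 172, 154, 219.8 and 205 in si45, 175, 187, 187 and 166 in si46 and 124, 158, 154 and 155 in si47. It too was below all controls in 12 of 12 libraries, and fell by 0.43 (SE 0.0778, edgeR adjusted p = 0.000376).

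Of the other ring subunits, MCM6 fell by 0.36 (SE 0.09397, edgeR adjusted p = 0.0156; 0.0846 and 0.0824 without siNTC replicate 3 or 4). MCM5 fell by 0.39 (SE 0.112, edgeR adjusted p = 0.0323), a call lost without any 1 of 11 libraries, all 4 controls among them (0.0512 to 0.121). MCM7, the most abundant of the 49 genes in the controls at 361 CPM, had -0.22 over the 3 siRNAs (edgeR adjusted p = 0.0535) and fell under si47, with -0.37 (SE 0.0869, edgeR adjusted p = 0.00490). The microRNA genes MIR25, MIR93 and MIR106B lie within MCM7 on its strand, and it is overlapped by AP4M1 on the opposite strand.

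MCM2 (ENSG00000073111, chromosome 3, 127598223 to 127622436 on the plus strand) had the highest p of the helicase genes and a wide spread between replicates, at 203, 130.1, 205 and 140.3 CPM in siNTC, 184, 117, 163 and 177 in si45, 152, 136, 177 and 147 in si46 and 156, 72.8, 119.6 and 133 in si47. Replicate 2 was the lowest library in each of the 4 groups. Over the 3 siRNAs the value was -0.24 (SE 0.181, edgeR adjusted p = 0.511), and under si47 it was -0.49 (SE 0.226, edgeR adjusted p = 0.212), both without a replicate block. MCM2 overlaps TPRA1 on the opposite strand.

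**Figure D2:**
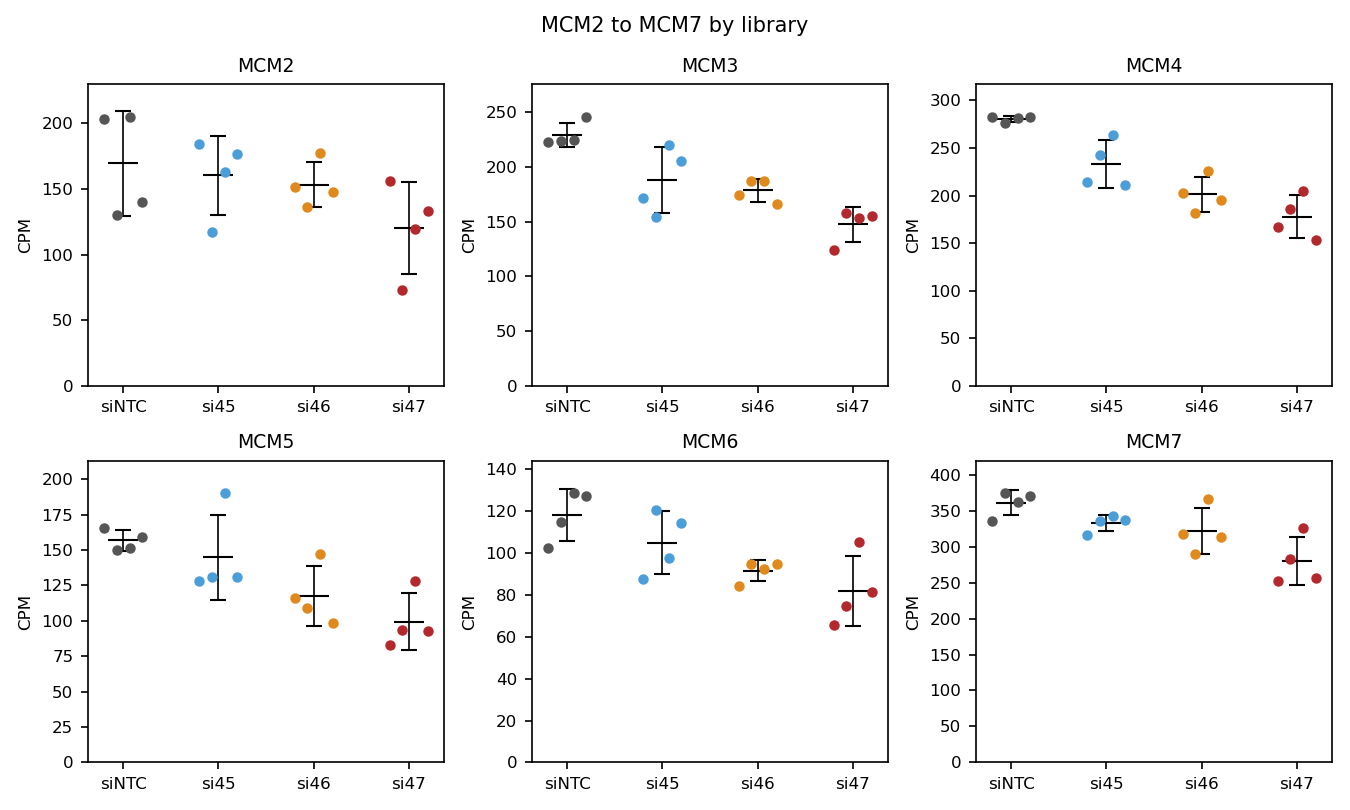
Level of MCM2 to MCM7 in CPM (vertical axes from 0) in each library of siNTC, si45, si46 and si47, with replicates 1 to 4 from left to right within a group and bars for the mean ± SD (n = 4). MCM3 and MCM4 are below all controls in all 12 knockdown libraries, while MCM2 overlaps in every group.

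Of the 5 partners of the ring, 1 fell over the 3 siRNAs and 3 under si47. GINS1 (ENSG00000101003, chromosome 20, 25407727 to 25452628 on the plus strand), a subunit of the GINS tetramer, was at 50.5, 54.1, 55.6 and 61.6 CPM in siNTC, 32.3, 40.4, 48.5 and 44.5 in si45, 43.2, 46.01, 53.5 and 41.5 in si46 and 40.7, 32.7, 42.8 and 35.05 in si47. It was below all controls in 11 of 12 libraries and fell by 0.41 (SE 0.103, edgeR adjusted p = 0.00978; 0.0703 without siNTC replicate 4). GINS2 and GINS4 fell under si47, by 0.56 (SE 0.148, edgeR adjusted p = 0.0119) and 0.74 (SE 0.169, edgeR adjusted p = 0.00382), and not over the mean (-0.33 and -0.39, adjusted p = 0.0813 and 0.0700 in edgeR). GINS3 had -0.22 and CDC45 -0.16 over the 3 siRNAs, and neither passed in a comparison with siNTC without a block. CDC45 stood at 32.8 ± 2.11, 32.00 ± 3.73, 30.6 ± 3.89, 25.7 ± 3.65 CPM (mean ± SD, n = 4) in siNTC, si45, si46 and si47.

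Of the 3 firing genes, 2 fell over the 3 siRNAs and under si47 (3.53% and 4.83% of all tested genes). MCM10 (ENSG00000065328, chromosome 10, 13161554 to 13211104 on the plus strand), which activates the assembled helicase, was at 202, 187, 210.1 and 187 CPM in siNTC, 147, 154, 203 and 173 in si45, 145, 178, 175 and 151 in si46 and 90.2, 123, 149 and 127 in si47. The si47 libraries were the lowest as a group, although si45 replicate 1 and si46 replicate 1 lay below si47 replicate 3, and 11 of 12 knockdown libraries lay below all controls. The change was -0.39 (SE 0.0924, edgeR adjusted p = 0.00739) over the 3 siRNAs and -0.68 (SE 0.117, edgeR adjusted p = 0.000203) under si47. CDC7 and DBF4 encode the kinase and the activating subunit that phosphorylate the MCM ring. DBF4 (ENSG00000006634, chromosome 7, 87876216 to 87909541 on the plus strand) was at 145, 155, 153 and 152 CPM in siNTC, 121, 132, 147 and 137 in si45, 129, 117, 130.0 and 129.7 in si46 and 123, 109, 131 and 91.8 in si47. It lay below all controls in all libraries but si45 replicate 3, and fell by 0.28 (SE 0.0767, edgeR adjusted p = 0.0189; 0.0736, 0.0592 and 0.0598 without siNTC replicate 2, 3 or 4). CDC7 was at 35.9, 35.7, 31.2 and 34.5 CPM in siNTC, 40.5, 28.9, 27.6 and 30.3 in si45, 24.9, 35.5, 31.6 and 29.1 in si46 and 27.03, 26.9, 31.3 and 24.6 in si47. Libraries of all 3 siRNAs overlapped the controls and its change of -0.21 (SE 0.115, edgeR adjusted p = 0.313) did not pass.

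Among the polymerase and primase genes the catalytic subunits of the 3 replicative polymerases fell, and 4 of the 9 genes did not pass in any comparison with siNTC. 5 fell over the 3 siRNAs and 5 under si47 (3.53% and 4.83% of all tested genes): POLA1, POLA2, POLD1, POLD3 and POLE. POLA1 (ENSG00000101868, chromosome X, 24693919 to 24996986 on the plus strand), the catalytic subunit of polymerase alpha, was at 150.2, 175, 123 and 128 CPM in siNTC, 121, 137, 123 and 98.2 in si45, 111, 114, 117 and 100.2 in si46 and 99.6, 95.98, 94.4 and 68.2 in si47. Its control values were spread from 123 to 175, and all si46 and si47 libraries lay below them. It fell by 0.44 (SE 0.0943, edgeR adjusted p = 0.00274). EEF1B2P3, a pseudogene with more reads than POLA1, lies within it on the opposite strand.

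POLE (ENSG00000177084, chromosome 12, 132623753 to 132687365 on the minus strand), the catalytic subunit of the leading-strand polymerase epsilon, was at 80.97, 73.4, 73.4 and 65.9 CPM in siNTC, 63.2, 74.6, 63.3 and 55.04 in si45, 58.99, 60.4, 61.9 and 46.4 in si46 and 42.9, 52.6, 46.7 and 43.3 in si47. It was below all controls in 11 of 12 libraries, with a log2 fold change of -0.41 (SE 0.0919, edgeR adjusted p = 0.00386). POLD3 (ENSG00000077514, chromosome 11, 74493851 to 74669117 on the plus strand), an accessory subunit of polymerase delta, was at 102, 112, 115 and 118 CPM in siNTC, 90.98, 102, 115 and 103 in si45, 85.1, 88.6, 89.7 and 84.9 in si46 and 68.1, 76.6, 87.2 and 83.8 in si47. The si45 libraries overlapped the controls, the si46 and si47 libraries did not, and the change was -0.33 (SE 0.0771, edgeR adjusted p = 0.00594). POLD1, the catalytic subunit of polymerase delta, had the lowest value of the 49, -0.64 (SE 0.152, edgeR adjusted p = 0.00594), on few reads (58 to 167 counts per library). That call was lost without siNTC replicate 1 or 3 (0.0637 and 0.0630 in edgeR). POLA2 fell by 0.34 (SE 0.109, edgeR adjusted p = 0.0482), a call lost without any 1 of 11 libraries (0.0507 to 0.298).

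POLD2, another subunit of polymerase delta, had the highest p of this role, at 98.4, 93.8, 89.1 and 113 CPM in siNTC, 103, 97.7, 108 and 116 in si45, 95.3, 83.3, 87.03 and 96.9 in si46 and 99.3, 94.3, 103 and 93.5 in si47. Its groups overlapped throughout, and the fitted change was -0.01 (SE 0.0773, edgeR adjusted p = 0.960). The primase subunits PRIM1 and PRIM2 and the polymerase epsilon subunit POLE2 had -0.16, -0.23 and -0.19 over the 3 siRNAs, with SE of 0.125, 0.1704 and 0.175, and none passed. PRIM1 is overlapped on its own strand by NACA, an abundant gene, and how reads there were divided is not known.

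In the clamp and loader role 3 of 8 genes fell over the 3 siRNAs (RFC3, RFC4 and FEN1) and 5 under si47 (3.53% and 4.83% of all tested genes). RFC3 (ENSG00000133119, chromosome 13, 33818049 to 33966558 on the plus strand), a subunit of the clamp loader, was at 293, 302, 365 and 327 CPM in siNTC, 227, 228, 324 and 249 in si45, 259, 213, 285 and 253 in si46 and 182, 184, 257 and 188 in si47. Replicate 3 was the highest library in all 4 groups, and all knockdown libraries but si45 replicate 3 lay below all controls. RFC3 fell by 0.45 (SE 0.0963, edgeR adjusted p = 0.00423). The transcript AL161891.1 lies within it on the same strand.

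RFC4 (ENSG00000163918, chromosome 3, 186789880 to 186807058 on the minus strand), another loader subunit, was at 61.2, 47.4, 65.8 and 52.04 CPM in siNTC, 34.5, 36.2, 50.8 and 43.3 in si45, 38.2, 49.1, 41.4 and 39.5 in si46 and 38.2, 37.4, 48.6 and 41.99 in si47. Its mean was nearly equal under the 3 siRNAs, each group had 1 or more libraries below all controls and 1 above the lowest control, and it fell by 0.44 (SE 0.107, edgeR adjusted p = 0.00715; 0.0704 without siNTC replicate 3). RFC1, the large subunit, fell under si47 by 0.37 (SE 0.0886, edgeR adjusted p = 0.00490), while RFC2 and RFC5 did not pass in a comparison with siNTC without a block (-0.35 and -0.15 over the 3 siRNAs). FEN1 (ENSG00000168496, chromosome 11, 61792637 to 61797244 on the plus strand), the nuclease that trims Okazaki fragments, was at 149, 149, 165 and 153 CPM in siNTC, 122, 152, 122 and 150.4 in si45, 117, 139, 128 and 135 in si46 and 115, 112, 126 and 127 in si47. The si46 and si47 libraries lay below all controls, and si45 overlapped them in replicates 2 and 4. FEN1 fell by 0.26 (SE 0.07402, edgeR adjusted p = 0.0246; 0.0518, 0.115 and 0.0658 without siNTC replicate 2, 3 or 4). FEN1 is overlapped by TMEM258 on the opposite strand and FADS2 on its own. LIG1, the ligase that joins the fragments, fell under si47 by 0.56 (SE 0.138, edgeR adjusted p = 0.00936) and had -0.35 over the 3 siRNAs, which did not pass (edgeR adjusted p = 0.0541).

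PCNA (ENSG00000132646, chromosome 20, 5114953 to 5126626 on the minus strand), the clamp itself, had the highest p of this role, at 106, 113, 108 and 98.5 CPM in siNTC, 117, 108, 97.4 and 109.9 in si45, 102, 115, 94.8 and 100.0 in si46 and 77.6, 91.8, 100.3 and 92.96 in si47. The si45 and si46 libraries overlapped the controls and 3 of the 4 si47 libraries lay below them. The fitted change of PCNA was -0.09 (SE 0.0779, edgeR adjusted p = 0.579) over the 3 siRNAs and -0.23 (SE 0.0962, edgeR adjusted p = 0.126) under si47. PCNA is also known as a gene that p53 can induce.

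**Figure D3:**
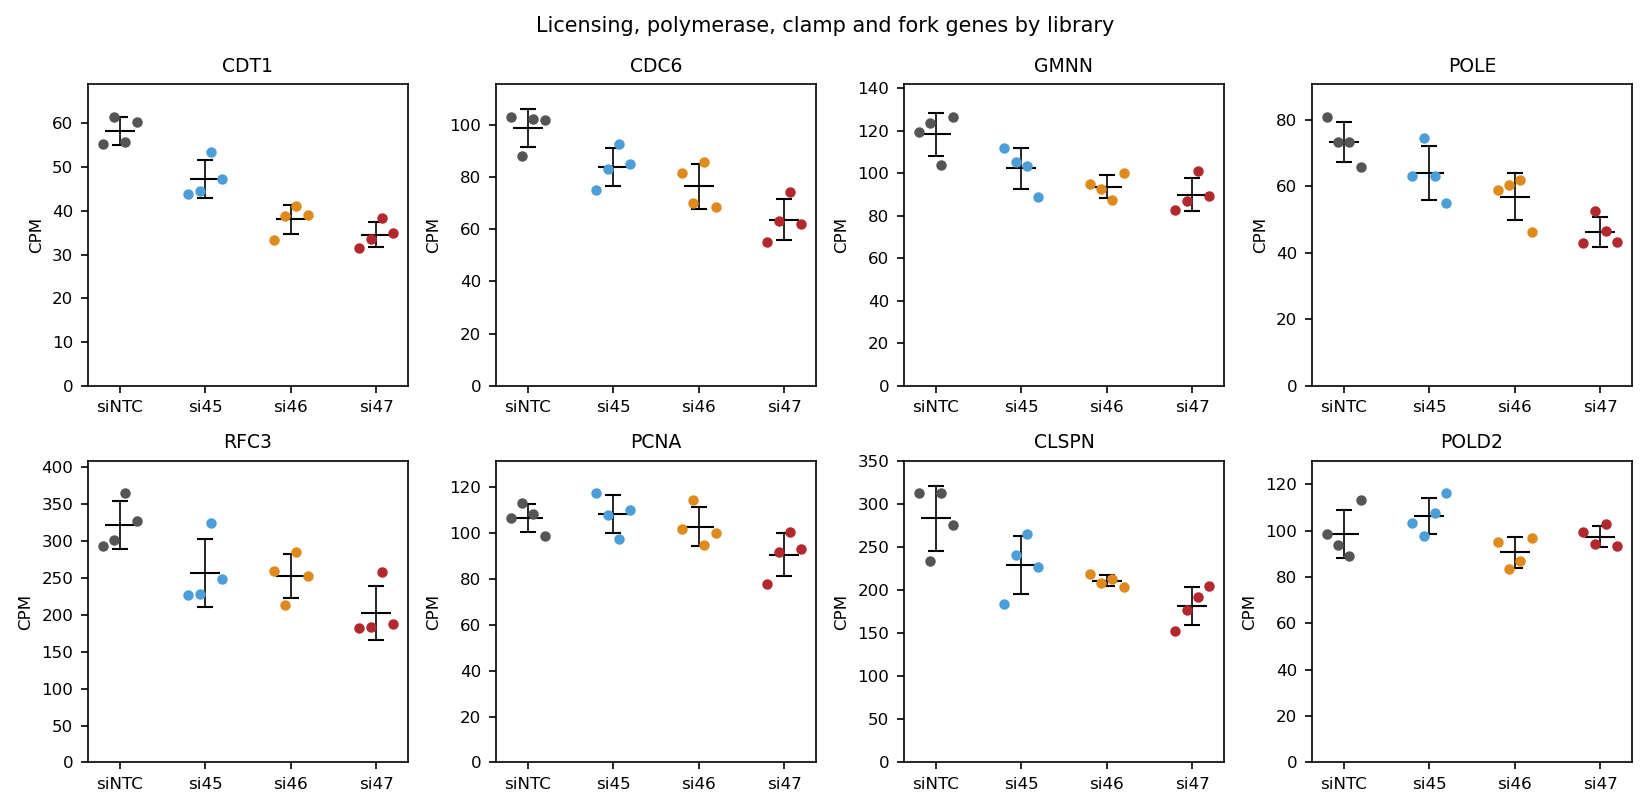
Level in CPM (vertical axes from 0) of CDT1, CDC6, GMNN, POLE, RFC3, PCNA, CLSPN and POLD2 in each library, with replicates 1 to 4 from left to right within siNTC, si45, si46 and si47 and bars for the mean ± SD (n = 4). CDT1 lies below all controls in all 12 knockdown libraries, and the groups overlap for PCNA and POLD2.

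In the last role 5 of the 6 fork protection genes fell, and the 3 RPA genes did not pass. Of the 9 in all, 5 fell over the 3 siRNAs and under si47 (DTL, MCM8, CLSPN, WDHD1 and TIMELESS; 3.53% and 4.83% of all tested genes). DTL (ENSG00000143476, chromosome 1, 212035553 to 212107400 on the plus strand), the substrate receptor of the ubiquitin ligase that destroys CDT1 in S phase, was at 234, 247, 262 and 229 CPM in siNTC, 168, 188, 218 and 189 in si45, 172, 167, 210.4 and 153 in si46 and 134, 126, 201 and 144 in si47. All 12 knockdown libraries were below all controls, and DTL had a change of -0.50 (SE 0.0927, edgeR adjusted p = 0.000770). CLSPN (ENSG00000092853, chromosome 1, 35720218 to 35769967 on the minus strand), claspin, which links the fork to the kinase CHEK1, was at 312, 234, 313 and 276 CPM in siNTC, 184, 241, 265 and 228 in si45, 219, 209, 213 and 203 in si46 and 153, 177, 192 and 205 in si47. Control replicate 2 at 234 CPM was lower than 2 of the si45 libraries, and CLSPN fell by 0.46 (SE 0.0824, edgeR adjusted p = 0.000371).

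MCM8 (ENSG00000125885, chromosome 20, 5950652 to 5998977 on the plus strand), a relative of the ring subunits that acts in recombination and not in licensing, was at 147, 129, 149 and 118 CPM in siNTC, 98.1, 110.4, 123 and 93.4 in si45, 92.3, 112, 100.3 and 91.5 in si46 and 82.5, 84.2, 93.9 and 92.96 in si47. It was below all controls in 11 of 12 libraries, with -0.47 (SE 0.08097, edgeR adjusted p = 0.000159) over the 3 siRNAs. WDHD1, which ties polymerase alpha to the helicase, fell by 0.44 (SE 0.09397, edgeR adjusted p = 0.00206), with means of 80.9 ± 7.93, 60.7 ± 7.22, 58.7 ± 8.76, 58.8 ± 6.65 CPM (± SD, n = 4) in siNTC, si45, si46 and si47. TIMELESS fell by 0.27 (SE 0.0803, edgeR adjusted p = 0.0297), a call lost without siNTC replicate 1, 2 or 3 (0.0742, 0.0944 and 0.143), si45 replicate 1 (0.0543) or si47 replicate 1 (0.0539). Its partner TIPIN had the highest p of this role, at 26.3, 31.6, 26.9 and 24.3 CPM in siNTC, 27.5, 23.5, 23.9 and 24.97 in si45, 29.9, 28.7, 28.1 and 30.9 in si46 and 22.2, 20.5, 23.7 and 24.9 in si47. The si46 libraries of TIPIN all lay within the range of the controls, and the change over the 3 siRNAs was -0.09 (SE 0.111, edgeR adjusted p = 0.705). RPA1, RPA2 and RPA3, the subunits of the single-strand binding complex, had -0.11, -0.14 and -0.11 over the 3 siRNAs, with SE of 0.0959, 0.0954 and 0.103, and none passed under any siRNA.

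Under si47, 27 of the 30 genes kept their call in every fit that was tried, with another scaling, tool, filter, set of libraries, block or library left out. The exceptions were ORC1, GINS2 and RFC4. The 19 genes that passed in none of the comparisons with siNTC, in the edgeR fit without a replicate block, were ORC2 to ORC5, MCM2, CDC45, GINS3, CDC7, PRIM1, PRIM2, POLD2, POLE2, PCNA, RFC2, RFC5, RPA1 to RPA3 and TIPIN. A p above the threshold does not show that these were unchanged. The SE of their log2 fold changes over the 3 siRNAs ran from 0.0773 for POLD2 to 0.181 for MCM2.

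The difference between siRNAs was tested directly. Fitted values were lower under si47 than under si45 for 46 of the 49 genes, lower under si47 than si46 for 42, and lower under si46 than si45 for 41. Over all tested genes these shares were 49.5%, 49.7% and 49.9%. Without a block, 0 of the 49 passed in any of the 3 edgeR tests between siRNAs, where 0.169% of all tested genes differed between si47 and si45, 0.0493% between si47 and si46 and 0.0282% between si46 and si45. At an unadjusted p under 0.05 the numbers were 27, 14 and 5, against 10.4%, 7.29% and 4.10% of all tested genes. DESeq2 called 8, 0 and 0, against 0.965%, 0.197% and 0.0705% of all tested genes. Without the count filter edgeR called 11, 1 and 0, where 166, 44 and 14 genes were called in all. The count for si47 against si45 was 12 without si47 replicate 3 and 1 without si45 replicate 1. Over all tested genes 36 were called without si45 replicate 1, against 24 with all libraries. Calls over all tested genes thus shifted too when 1 library was left out. The last section gives the range over these fits, for the 49 and for all tested genes.

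Libraries of si45 and si47 with the same replicate number deviated together from their group means, so the replicate number was also fitted as a block. The block was fitted over all 16 libraries, so it also tied siNTC and si46 libraries to the same numbers. With this block 20 of the 49 genes were lower under si47 than under si45, where 1.49% of all tested genes were lower, and 0 were higher, where 1.31% were. These were CDC6, CDT1, MCM2 to MCM7, GINS2, GINS4, MCM10, POLA1, POLA2, POLD3, POLE, RFC1, RFC3, LIG1, CLSPN and DTL, with log2 differences of -0.56 to -0.26. MCM5 had the lowest p of the 20, with a difference of -0.54 (SE 0.0907, edgeR adjusted p = 0.000156). MCM2 was among the 20 with -0.43 (SE 0.115, edgeR adjusted p = 0.0457), while without the block its difference was -0.41 (SE 0.226, edgeR adjusted p = 0.570). RFC4 and WDHD1, which fell over the 3 siRNAs, had blocked differences between si47 and si45 near 0, at 0.02 (SE 0.120) and -0.05 (SE 0.105). TPX2 itself was at 28.0% of the control mean under si45 and 21.8% under si47, and did not differ between them at the threshold in either fit (edgeR adjusted p = 0.246 without and 0.107 with the block).

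A mean over the 49 genes was taken in each library as the log2 difference from the control mean. It was -0.02 to 0.05 in siNTC, -0.24 to -0.11 in si45, -0.31 to -0.19 in si46 and -0.50 to -0.30 in si47. All 12 knockdown libraries lay below all controls, and 37 to 46 of the 49 genes were below their control mean in each of them. In siNTC replicates 1 to 4 that number was 27, 27, 17 and 22. The share over all tested genes was not counted. Replicate 3 was the library nearest to 0 in each siRNA group, at -0.11, -0.19 and -0.30, and was also the library with the most TPX2 in each (121, 93.8 and 76.3 CPM). In siNTC replicate 3 had the highest mean of the 49 genes (0.05) and the least TPX2 (297 CPM). The summed level of the 49 genes was 5007 to 5326 CPM in siNTC, 4179 to 4808 in si45, 4038 to 4464 in si46 and 3405 to 4099 in si47. Without the 3 siRNA libraries numbered 3, an alternative chosen after the data were seen, 9, 14 and 31 of the 49 genes were called under si45, si46 and the mean. Calls over all tested genes also rose in that fit under si45, si46 and the mean, as the last section gives.

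**Figure D4:**
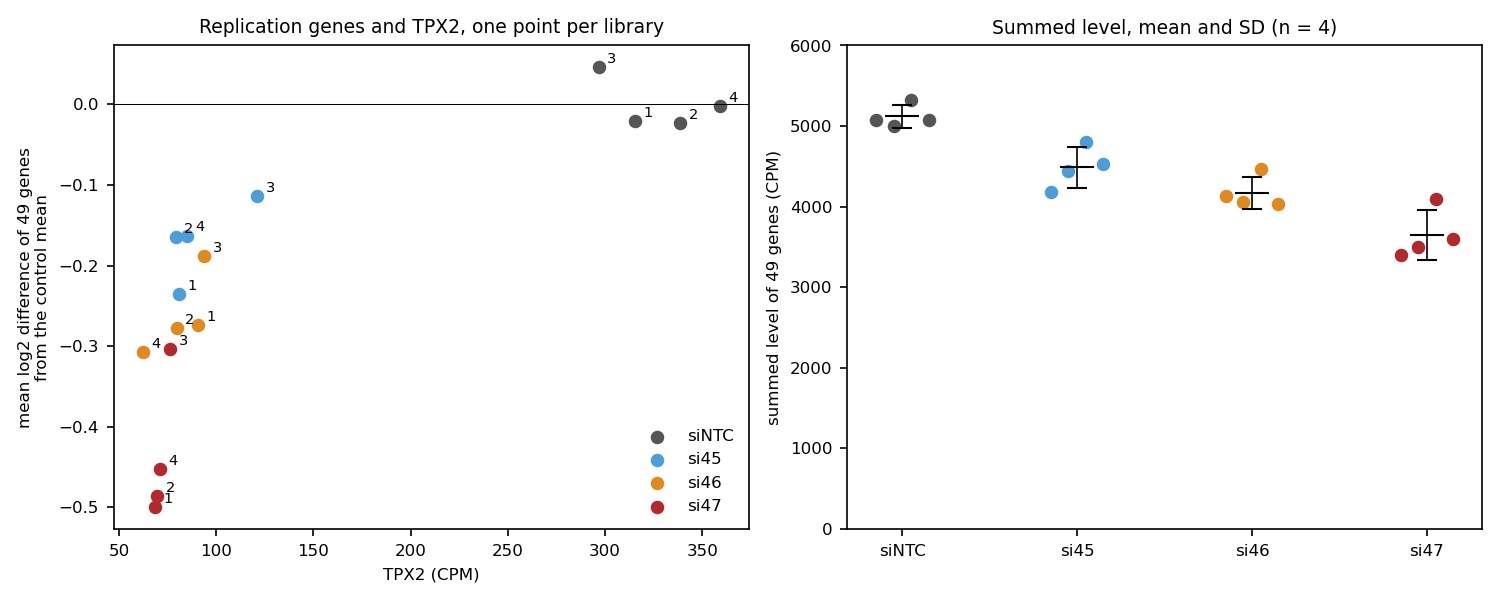
Left, mean log2 difference of the 49 genes from the control mean (vertical axis) against TPX2 in CPM (horizontal axis), 1 point per library, with the replicate number beside it. Right, summed level of the 49 genes in CPM with the mean ± SD of each group (n = 4); replicate 3 is the highest library in each siRNA group, and the si47 libraries run from 3405 to 4099.

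Other replication genes, from a list of 38 outside the 49, also included genes that fell. Of the 36 with enough reads, 12 fell over the 3 siRNAs and 0 rose, with a median of -0.21, and 13 fell under si47 with a median of -0.32 (3.53% and 4.83% of all tested genes fell). The 12 were TICRR, TOPBP1, RECQL4, DONSON, DBF4B, DSCC1, CHTF18, ATAD5, DNA2, SSRP1, SUPT16H and CHEK1. TICRR and RECQL4, which help to fire origins, fell by 0.61 (SE 0.123, edgeR adjusted p = 0.00136) and 0.58 (SE 0.0943, edgeR adjusted p = 7.14e-05), and ATAD5, which unloads PCNA, fell by 0.40 (SE 0.0777, edgeR adjusted p = 0.000740). RECQL4 was the 1 gene of this list that passed under si45.

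For comparison, 11 of 20 mitotic genes fell over the 3 siRNAs with a median of -0.32, next to 25 of 49 and -0.31 for the replication genes. Under si45, si46 and si47 the mitotic medians were -0.28, -0.30 and -0.36, and those of the replication genes -0.14, -0.27 and -0.45. The counts that fell were 3, 7 and 11 of 20 for the mitotic genes and 0, 10 and 30 of 49 for the replication genes, against 0.324%, 1.25% and 4.83% of all tested genes, and 3.53% over the 3 siRNAs. Whether the lists differ in their order over the siRNAs was not tested.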

How the data were processed

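The deposited table holds raw read counts per Ensembl gene for 16 QuantSeq libraries, a method that sequences the 3′ end of each transcript, so counts were not divided by gene length. Per the submitters' processing notes FastQC 0.11.7, STAR 2.7.2b, edgeR 3.36.0, limma 3.50.3 and the build GRCh38 were used. The counting program, annotation, strand setting and treatment of PCR copies are not given in the sources used here. Per the labels' protocols libraries had 15 PCR cycles. Gene positions are those of GENCODE v29 (build GRCh38), where 58515 of 58787 identifiers were found, and 29 of the 49 genes overlap another annotated gene.

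From these counts edgeR 4.0.16 (R 4.3.3) fitted 4 group means over all 16 libraries with TMM scaling and the robust quasi-likelihood test. The filter filterByExpr (minimum count 10, minimum total 15) left 14193 genes, and each comparison had its own Benjamini-Hochberg adjustment, with a threshold of 0.05. CPM used TMM library sizes, and the SE is the log2 fold change divided by the square root of F. TPX2 was tested by an exact permutation of log2(CPM + 1). The 49 genes and the other lists were chosen with earlier results of these data known. Genes described with every library were, within each role, the up to 3 with the lowest p over the 3 siRNAs and the 1 with the highest p. Others were named after their values were seen.

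Within-group pairs of libraries differed by a chi-square of 4.36 to 9.80 per degree of freedom, so none was the same library sequenced again. This does not tell whether the libraries came from separate cultures. The labels do not tie replicate numbers across groups. Deviations from the group means correlated between same-numbered libraries with r = 0.120 to 0.242 in all 4 pairs of si45 and si47, so these were taken as paired on the values alone. In each other pair of groups at least 1 of the 4 correlations was under 0.1. The same-numbered library still had the highest r in every case for siNTC with si45, si45 with si46 and si46 with si47. For siNTC with si46 and siNTC with si47 it did so in some cases. The comparisons with siNTC may therefore also be paired, and their main fit leaves this out. Alternatives were DESeq2 1.42.0, its size factors in edgeR, no count filter, a replicate block, only the groups compared, and each library left out.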

Additional observations from a re-analysis of the deposited data

Results flagged for a closer look

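Of 100 groups of 4 libraries checked for a value far from the other 3 (23 replication genes, TPX2 and the mean over the 49 genes), 7 stood out, where chance gives about 5, or 1 in 20. The gap to the nearest library, as a share of the range of the group, was above Dixon's critical value in each. For CDC6 in siNTC it was 0.917, with replicate 2 lowest at 87.9 CPM, and for MCM3 in siNTC 0.951, with replicate 4 highest at 246 CPM. In si47 it was 0.879 for MCM3, with replicate 1 lowest at 124 CPM, 0.834 for POLA1, with replicate 4 lowest at 68.2, and 0.929 for RFC3, with replicate 3 highest at 257. For DBF4 in si46 it was 0.919, with replicate 2 lowest at 117 CPM, and for TPX2 in si45 0.862, with replicate 3 highest at 121 CPM.

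The effect of si47 differed from that of si45 for 20 of the 49 genes in the fit with the replicate block, all lower under si47. Without the block edgeR called 0 with the count filter and all libraries (24 genes in all), 11 with no count filter (166 in all) and 12 without si47 replicate 3.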

How the results depend on the processing

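Every median of the 49 genes and every log2 fold change of TPX2 against siNTC kept its sign in all alternatives run, and no call reversed. DESeq2 called 292 genes for si45, and 10, 137 and 28 for si46 against si45, si47 against si45 and si47 against si46, with 8 of the 49 for si47 against si45. With no count filter the numbers were 356, 14, 166 and 44, and 4, 11 and 1 of the 49 were called for si45, si47 against si45 and si47 against si46. With the replicate block 577, 1073, 2198 and 1817 genes were called for si45, si46, si47 and the mean, and 33, 398 and 108 between siRNAs in the order above, while 9 and 21 of the 49 passed for si45 and si46, 20 for si47 against si45 and 2 for si47 against si46. Of the 19 genes that passed in no comparison with siNTC, the block brought MCM2, GINS3 and RFC2 past the threshold under si47 (edgeR adjusted p = 0.00334, 0.0245 and 0.0148) and RFC2 and ORC2 over the mean (0.0283 and 0.0455). With only the groups compared, 16 of the 49 passed for si46, where 631 genes were called in all, and 4 genes differed between si47 and si46. Without the 3 siRNA libraries numbered 3, an alternative chosen after seeing the data, 554, 793 and 1825 genes were called for si45, si46 and the mean and 82 between si47 and si45, with 9 of the 49 for si45 and 5 for si47 against si45. Leaving out each library in turn gave 97 to 406 genes for si45, 252 to 579 for si46, 932 to 1664 for si47, 629 to 1388 for the mean, 4 to 7 for si46 against si45, 10 to 147 for si47 against si45 and 2 to 23 for si47 against si46. Of the 49 it gave 0 to 8 for si45, 3 to 13 for si46, 28 to 31 for si47, 16 to 30 for the mean and 0 to 12 for si47 against si45. The counts with no setting changed were 190, 482, 1382, 1014, 4, 24 and 7 genes. The cause of these shifts was not tested. The design has 4 libraries a group, and POLE2, with 37 to 93 counts per library, was the gene with the fewest reads.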
